A study of Mus musculus with 8 samples.

Results

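The genes described here handle iron in the cell: the uptake genes Tfrc, Steap3 and Slc11a2, the storage genes Fth1, Ftl1 and Ncoa4, the exporter gene Slc40a1, and Aco1 and Ireb2, which encode the iron regulatory proteins. They were chosen by gene symbol, which gave 9 rows out of 54532 in the deposited gene count table. RNA was sequenced from mouse CD4 T cells of the spleen on day 2 of differentiation toward pathogenic Th17 cells, helper cells that make interleukin-17 and are tied to autoimmune inflammation. There were 4 libraries labelled Cyp1b1 knockout (written Cyp1b1-/- in the series) and 4 labelled wild type, all under the same differentiation. Cyp1b1 encodes a cytochrome P450 enzyme that contains heme, and the series asks about its part in redox balance and mitochondrial function. The sources used here do not give the way the allele was made, the strain, the age, the cytokines used or whether replicates came from separate animals. The p-values therefore measure spread between libraries that may be technical.

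Iron reaches a T cell bound to transferrin, which the transferrin receptor Tfrc carries into endosomes. There a ferrireductase such as Steap3 reduces it and the transporter Slc11a2 (DMT1) moves it into the cytosol. Spare iron is stored in ferritin, a shell of heavy (Fth1) and light (Ftl1) subunits that Ncoa4 delivers to lysosomes for release, and ferroportin (Slc40a1) exports it. When iron is short, the proteins encoded by Aco1 (IRP1) and Ireb2 (IRP2) bind hairpins called iron-responsive elements (IREs). Binding in the 5′ untranslated region blocks translation, as for ferritin and ferroportin. Binding in the 3′ untranslated region protects the transcript, as for Tfrc. Dividing T cells depend on Tfrc for iron.

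The hairpins are shown because they divide these genes into those whose mRNA level the IRPs are known to set and those they are known to control in translation. GENCODE M21 transcripts (GRCm38) were searched on the transcript strand for a C, then NNNNN, the loop CAGTGN and NNNNN, in which the 5 bases before the loop had to pair with the 5 bases after it, G-U pairs allowed. Tfrc held 4 such matches in its 3′ untranslated region, and Fth1, Ftl1 and Slc40a1 held 1 each in the 5′ untranslated region. Those of Tfrc and of Ftl1 were carried by 1 of 2 complete coding transcripts each, that of Fth1 by all 3 and that of Slc40a1 by its 1. In Slc11a2, 4 of 5 stem pairs formed in a 3′ untranslated match carried by 1 of its 2 complete coding transcripts. No match lay in Aco1, Ireb2, Steap3 or Ncoa4. Among genes tested below with a complete coding transcript, 198 of 11884 (1.67%) held a full match anywhere, 0.195% in the 5′ and 0.786% in the 3′ untranslated region. Each line gives 29 bases, with the hairpin loop in capitals:
Tfrc, chr16:32631219-32631247, plus strand: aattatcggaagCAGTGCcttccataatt
Tfrc, chr16:32631598-32631626, plus strand: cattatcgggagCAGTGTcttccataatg
Tfrc, chr16:32631663-32631691, plus strand: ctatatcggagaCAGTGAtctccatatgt
Tfrc, chr16:32631710-32631738, plus strand: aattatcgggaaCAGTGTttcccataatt
Fth1, chr19:9982732-9982760, plus strand: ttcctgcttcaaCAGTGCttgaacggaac
Ftl1, chr7:45459779-45459807, minus strand: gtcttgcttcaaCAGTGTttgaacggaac
Slc40a1, chr1:45925465-45925493, minus strand: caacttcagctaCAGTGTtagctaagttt
Slc11a2, chr15:100395153-100395181, minus strand: agccatcagagcCAGTGTgtttctatggt

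Library totals ran from 8918342 to 15667313 counts. The Cyp1b1 row goes against the labels: it held 2179, 3169, 3007 and 2069 counts in the libraries labelled knockout 1 to 4, and 64, 34, 63 and 69 counts in wild type 1 to 4. Exons cannot be told apart in a table of counts per gene, and all directions below rest on those labels. Genotypes were compared with edgeR's quasi-likelihood test, adjusted by Benjamini-Hochberg over all 14428 genes that passed a filter on low counts, and a gene is called at an adjusted p under 0.05. That test called 4380 genes, or 30.4% of those tested: 15.7% were higher with the knockout label and 14.6% lower. These were 2272 higher and 2108 lower genes, and 1745 and 2689 when libraries were scaled by their totals alone. CD4 T cell markers were present (summed level 3902 to 4065 CPM in the libraries labelled knockout and 3662 to 3841 CPM in wild type), as was the Th17 cytokine gene Il17f.

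Of the 9 iron genes, 8 passed the filter, 1 was called higher, none was called lower and 7 were not called, where 30.4% of all tested genes were called. The higher gene was Ftl1, the ferritin light subunit. None was called lower by DESeq2 or limma-voom either, and Ftl1 was the 1 gene with an unadjusted p under 0.05. The median log2 fold change of the 8 genes was -0.0025, and -0.00099 over all tested genes. The median absolute log2 fold change was 0.095 for the 8 genes and 0.21 for all tested genes. Libraries of the labels did not overlap for 1 of the 8 genes, Ftl1, against 29.2% of all tested genes.

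**Figure D1:**
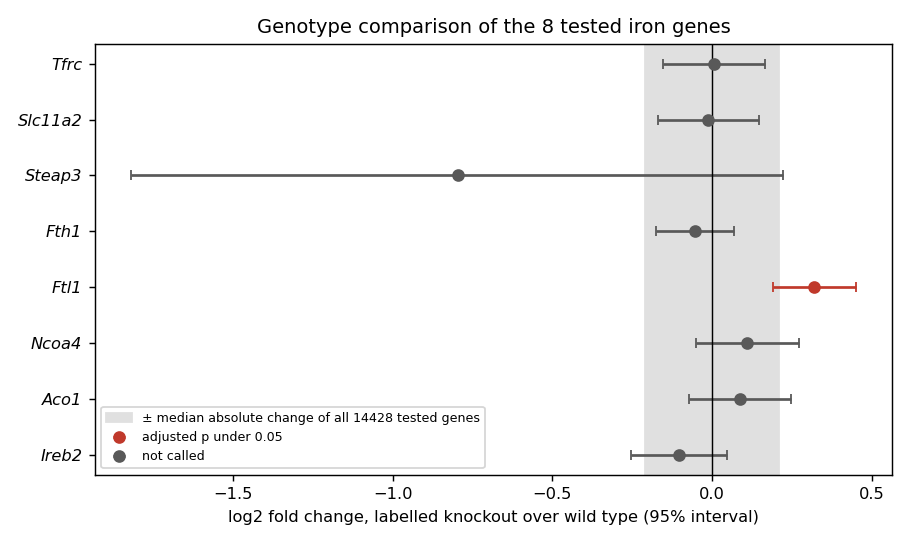
Log2 fold change of the 8 tested iron genes, labelled knockout over wild type, on the x axis, with 95% intervals from edgeR as bars. The Ftl1 interval, 0.19 to 0.45, lies above 0, and the other 7 cross it. The grey band is the median absolute change of all tested genes, 0.21 either way.

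Taking uptake first, Tfrc was not called and its interval was narrow. Its level in CPM (counts scaled to library size by TMM) was 305.2, 365.6, 332.7 and 303.1 in the libraries labelled knockout 1 to 4, against 343.1, 300.0, 367.8 and 289.7 CPM in wild type 1 to 4. The highest library was wild type 3 and the lowest wild type 4, so the labelled knockouts lay inside the wild type range. The means were 326.7 ± 29.3 CPM in the labelled knockouts and 325.2 ± 36.7 CPM in wild type (SD, n = 4 each). This gave a log2 fold change of 0.0062 (SE of 0.077 and edgeR adjusted p = 0.964), with a 95% interval from -0.15 to 0.17. Its sign turned with scaling by library totals (-0.044).

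Slc11a2, which takes iron out of the endosome, had 60.7, 67.96, 66.0 and 65.5 CPM in the libraries labelled knockout 1 to 4, against 66.04, 71.5, 67.4 and 57.8 CPM in wild type 1 to 4. The wild type libraries again enclosed all 4 labelled knockouts. The log2 fold change was -0.011 (SE 0.076, edgeR adjusted p = 0.931), with an interval from -0.17 to 0.15. Its transcripts with and without the hairpin are not separated in counts per gene.

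Steap3, the ferrireductase best known from red cell precursors, was close to the detection limit. It held 5, 6, 1 and 18 counts in the libraries labelled knockout 1 to 4, against 12, 10, 13 and 12 counts in wild type 1 to 4. Knockout 4 was the highest library and the other 3 labelled knockouts lay below every wild type library. The means were 0.50 ± 0.47 CPM in the labelled knockouts and 0.92 ± 0.12 CPM in wild type (SD, n = 4 each), and the log2 fold change of -0.80 (SE of 0.49 and edgeR adjusted p = 0.233) was not called. Without knockout 4, the highest library, it was called lower, at -1.63 (edgeR adjusted p = 0.0334). That fit keeps only labelled knockouts that lay below wild type, at 1 to 6 counts, so the call is no separate support. Without knockout 3 the value was -0.47 (edgeR adjusted p = 0.501), and with knockouts 1 and 4 alone -0.23 (edgeR adjusted p = 0.788). Steap3 passed the low-count filter through its wild type libraries, and the filter of at least 1 CPM in 4 libraries removed it.

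**Figure D2:**
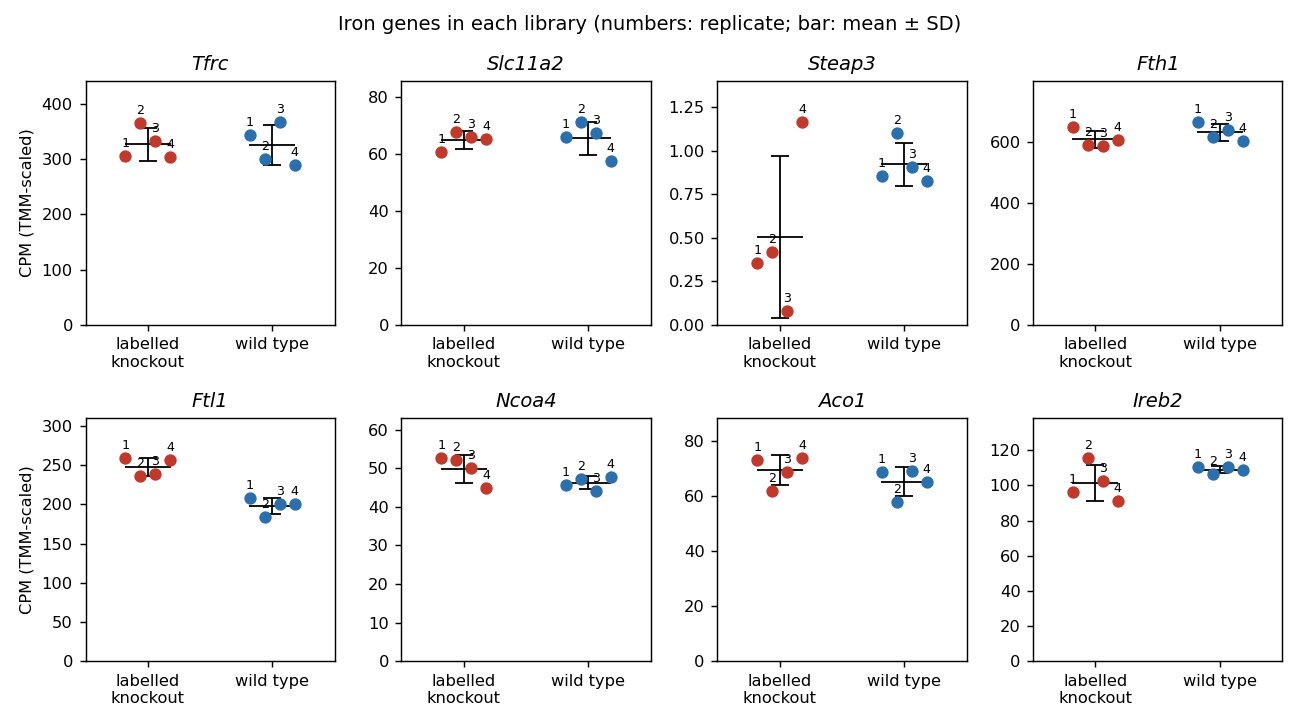
CPM (TMM-scaled, y axis from 0) of the 8 tested iron genes in each library, with the libraries labelled knockout left of wild type, replicate numbers beside the points, and the mean ± SD as a bar. Ftl1 lies at 236.2 CPM or above in the labelled knockouts and at 208 CPM or below in wild type. In the other panels the labels overlap.

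Among the storage genes, the light subunit rose and the heavy subunit was not called. Ftl1 (ENSMUSG00000050708, chromosome 7, 45457944 to 45459884) had 258.6, 236.2, 238.9 and 256.3 CPM in the libraries labelled knockout 1 to 4, against 208, 183.3, 200.8 and 199.9 CPM in wild type 1 to 4. Every labelled knockout lay above every wild type library. The means of 247.5 ± 11.6 CPM in the labelled knockouts and 198 ± 10.4 CPM in wild type (SD, n = 4 each) gave a 1.25-fold difference, or 0.32 as log2 fold change (SE 0.063, edgeR adjusted p = 0.000453). In RNA from whole cultures, more cells of a type and more RNA per cell cannot be told apart.

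Fth1, the subunit with the ferroxidase site that oxidises iron for storage, had 647.5, 589.1, 585.2 and 605.3 CPM in the libraries labelled knockout 1 to 4, against 665.1, 615.2, 636.2 and 602.2 CPM in wild type 1 to 4. The labels overlapped, with wild type 1 highest and knockout 3 lowest. The means were 606.8 ± 28.5 CPM in the labelled knockouts and 629.7 ± 27.4 CPM in wild type (SD, n = 4 each). This gave a log2 fold change of -0.053 (SE of 0.059 and edgeR adjusted p = 0.524), with an interval from -0.17 to 0.068.

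Reads of ferritin genes can be shared with near-identical pseudogenes, which makes their exact level uncertain. The 6 other ferritin rows in the table, pseudogenes among them, together held 62 to 91 counts per library labelled knockout and 49 to 88 per wild type library. That was 0.518% to 0.727% of all ferritin counts in a library.

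Ncoa4, the receptor that takes ferritin to lysosomes, had 52.6, 52.2, 49.96 and 44.8 CPM in the libraries labelled knockout 1 to 4, against 45.7, 47.3, 44.04 and 47.8 CPM in wild type 1 to 4. The labelled knockouts 1, 2 and 3 lay above all wild type libraries and knockout 4 fell among them. The log2 fold change was 0.11 (SE 0.078, edgeR adjusted p = 0.30), with an interval from -0.051 to 0.27.

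The exporter was all but undetected. Slc40a1 had 0 of 58116966 counts in the libraries labelled knockout, which allows a level of up to 0.0516 CPM over the group, and 1 of 51302584 counts in wild type, in replicate 4. These limits cover counting error alone. It did not pass the filter, and no fold is given. In the spleen ferroportin is best known from the macrophages that recycle red cells. Of 15 macrophage and monocyte markers, C1qa had no count, and Spic averaged 0.035 CPM in the libraries labelled knockout and 0.052 CPM in wild type. Above 1 CPM were Cd68, with 6.51 CPM in the libraries labelled knockout and 12.3 CPM in wild type, and Axl, with 62.0 CPM in the libraries labelled knockout and 45.6 CPM in wild type. The other genes of that list averaged under 1 CPM in each label.

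The IRP genes were both expressed and neither was called. Aco1, whose protein is an aconitase when it carries an iron-sulphur cluster and an RNA-binding protein when it does not, had 73.3, 62.1, 69.0 and 73.8 CPM in the libraries labelled knockout 1 to 4, against 69.0, 58.05, 69.1 and 65.1 CPM in wild type 1 to 4. The labels overlapped and replicate 2 was the lowest library in each. The log2 fold change was 0.088 (SE 0.078, edgeR adjusted p = 0.42), with an interval from -0.073 to 0.25. With 1 library left out it ran from 0.031 (without wild type 2) to 0.14 (without knockout 2), not called in any of these fits, and with knockouts 2 and 3 alone it was 0.0051.

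Ireb2, whose protein is degraded when iron is plentiful, had 96.4, 115.3, 102.7 and 91.1 CPM in the libraries labelled knockout 1 to 4, against 110.3, 106.2, 110.2 and 108.5 CPM in wild type 1 to 4. The labelled knockouts (SD 10.4 CPM) spread over both sides of the wild type libraries, which lay close together (SD 1.93 CPM). The log2 fold change was -0.10 (SE 0.072, edgeR adjusted p = 0.298), with an interval from -0.25 to 0.047. With 1 library left out it ran from -0.17 (without knockout 2) to -0.051 (without knockout 4), not called in any of these fits. With knockouts 1 and 4 alone Ireb2 was called lower, at -0.21 (edgeR adjusted p = 0.0219), and with knockouts 2 and 3 alone it stood at 0.0082 (edgeR adjusted p = 0.952). Knockouts 1 and 4 are the labelled knockouts lowest in Ireb2, so a lower value from them follows from the choice and is no separate result. The difference between these pairs was not tested. Over all genes, the libraries labelled knockout differed least within these pairs, with a chi-square per gene of 4.40 between 1 and 4 and 3.84 between 2 and 3, against 8.27 to 12.3 between the other pairs. The part of that split in this value was not tested.

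**Figure D3:**
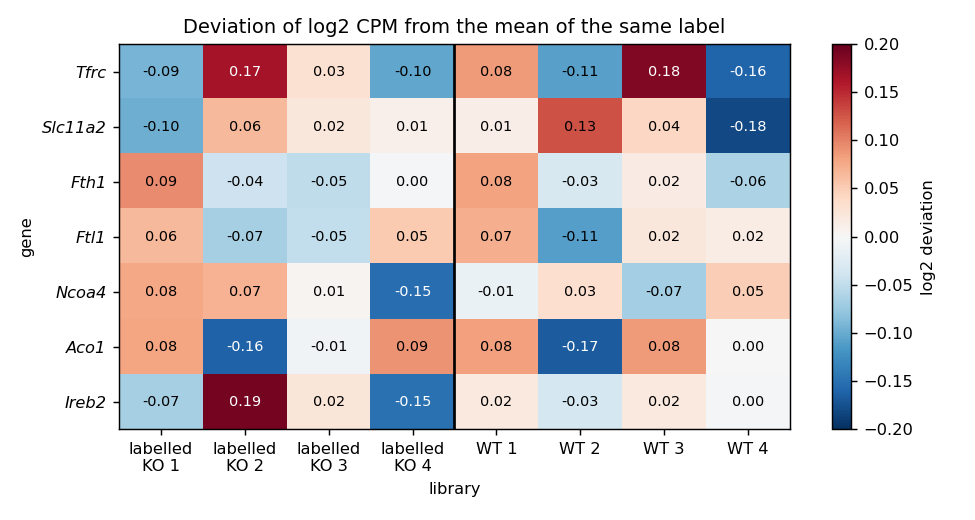
Deviation of log2 CPM from the mean of the same label (colour and printed value), for 7 iron genes in rows and the 8 libraries in columns; Steap3 is left out for its low counts. In knockout 2, Tfrc and Ireb2 lie above their label mean by 0.17 and 0.19 and Aco1 lies 0.16 below it.

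Spread within labels was small for the ferritin subunits. The SD of log2 CPM within labels was 0.065 for Fth1 and 0.073 for Ftl1, which ranks them at percentiles 6.29 and 9.33 among tested genes. It was 0.15 for Tfrc (percentile 46.3) and 0.75 for Steap3 (percentile 98.6). These ranks were not adjusted for level. In wild type, levels per gene length ranked at percentile 99.7 for Fth1, 98.1 for Ftl1 and 1.87 for Steap3. Knockout 2 had Tfrc and Ireb2 above the mean of its label by 0.17 and 0.19 and Aco1 below it (-0.16), and knockout 4 had the opposite signs for all 3 (-0.10, -0.15 and 0.089).

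Levels can be ranked between genes only per gene length, here as CPM per kilobase of the length given in the deposited table. Fth1 was first, with a mean of 700.7 in the libraries labelled knockout and 727.1 in wild type, at percentile 99.7 of tested genes in each. Ftl1 followed at 184.7 in the labelled knockouts and 147.8 in wild type, then Tfrc at 52.8 in the labelled knockouts and 52.6 in wild type. Aco1 came next at 15.5 in the labelled knockouts and 14.5 in wild type. Ireb2 (10.7 in the labelled knockouts and 11.5 in wild type) and Slc11a2 (10.2 in the labelled knockouts and 10.3 in wild type) had ranges over libraries that overlapped in both labels. Ncoa4 followed at 5.33 in the labelled knockouts and 4.93 in wild type, and Steap3 was last of the tested genes at 0.088 in the labelled knockouts and 0.16 in wild type. The order was the same in both labels.

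Ratios within a library do not depend on how libraries are scaled. The ratio of Fth1 to Ftl1 counts was 2.50, 2.49, 2.45 and 2.36 in the libraries labelled knockout 1 to 4, against 3.20, 3.36, 3.17 and 3.01 in wild type 1 to 4. No library of one label reached the other. The mean log2 ratio was 1.29 ± 0.039 in the labelled knockouts and 1.67 ± 0.064 in wild type (SD, n = 4 each), a difference of -0.38. An exact permutation over 70 assignments, two-sided, had p = 0.0286, which is the least it can give, and 0.0858 after Benjamini-Hochberg adjustment over the 3 ratios examined. The ratio was lower in 4 of 4 labelled knockouts and failed the correction. With 4 libraries per label, a ratio that is alone in separating the labels cannot pass a correction over 3 ratios.

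The ratio of Tfrc to Fth1, receptor over storage subunit, was 0.471, 0.621, 0.569 and 0.501 in the libraries labelled knockout 1 to 4, against 0.516, 0.488, 0.578 and 0.481 in wild type 1 to 4. The wild type libraries lay within the range of the labelled knockouts, and the log2 difference was 0.063 (exact permutation p = 0.60, adjusted 0.60). The ratio of Ireb2 to Aco1 was 1.31, 1.86, 1.49 and 1.23 in the libraries labelled knockout 1 to 4, against 1.60, 1.83, 1.59 and 1.67 in wild type 1 to 4. Labelled knockouts 1, 3 and 4 lay below all wild type libraries and knockout 2 lay above them, with a log2 difference of -0.20 (exact permutation p = 0.229, adjusted 0.344). Leaving out knockout 2, the library that lay above, leaves labels that do not overlap, so the p of that comparison is fixed by the choice. The difference was then -0.32 (exact permutation p = 0.0286, unadjusted, the least those sizes can give), which is no separate support.

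**Figure D4:**
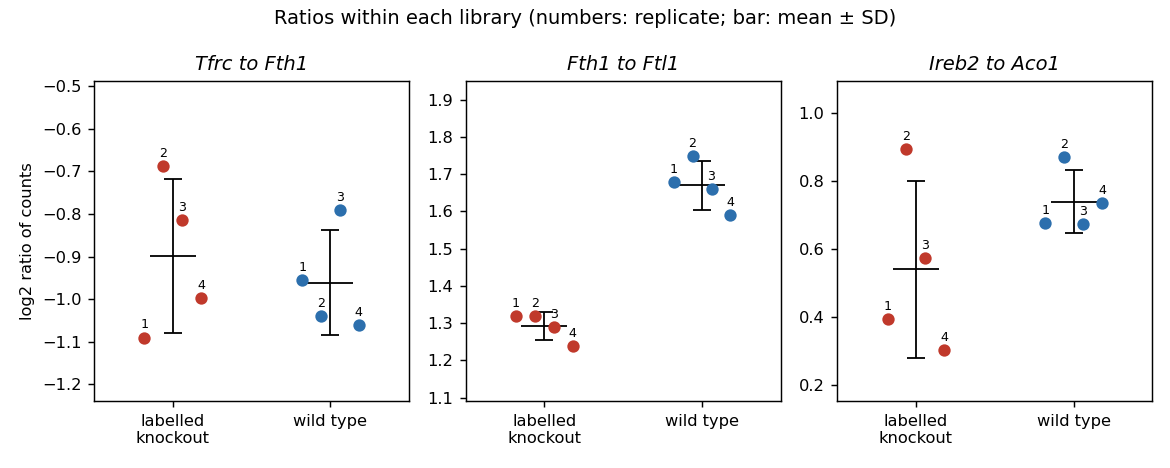
Log2 ratio of counts within each library for 3 gene pairs (y axes differ and do not start at 0), with the libraries labelled knockout left of wild type, replicate numbers beside the points and the mean ± SD as a bar. The labels separate for Fth1 to Ftl1, with means of 1.29 in the labelled knockouts and 1.67 in wild type, and overlap for Tfrc to Fth1 and for Ireb2 to Aco1.

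The genes whose profile over the 8 libraries was most like that of Ftl1 were Snx25, Spg7 and Ipo9. The measure was the root mean square difference of centred log2 CPM, which was 0.029, 0.035 and 0.037 for them, against a median of 0.26 over tested genes. Genes averaging under 10 CPM were left out of the search but not of that median. The profile includes the difference between the labels, and the log2 fold changes of Snx25, Spg7 and Ipo9 were 0.351, 0.309 and 0.306.

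Other genes of iron handling were read from lists of known function, which also hold some genes of neighbouring pathways. In the list of regulators of the IRPs and of systemic iron, 1 gene rose, 5 fell and 2 were not called out of 8 tested, with a median log2 fold change of -0.34. Over all tested genes 15.7% were called higher and 14.6% lower, and the median was -0.00099. The higher count of the list was 2 without knockout 2 and with knockouts 1 and 4 alone. Fbxl5, the iron-sensing subunit of the ubiquitin ligase that degrades IRP2, fell to 70.05 ± 5.26 CPM in the libraries labelled knockout, against 95.2 ± 3.89 CPM in wild type (SD, n = 4 each), or -0.44 as log2 fold change (edgeR adjusted p = 4.74e-05). Zfp36, an RNA-binding protein that destabilises mRNAs with AU-rich elements and limits Tfrc mRNA when iron is short, fell to 77.2 ± 6.23 CPM in the labelled knockouts, against 113.5 ± 12.6 CPM in wild type (-0.55, edgeR adjusted p = 1.58e-05). Its relatives moved both ways, with Zfp36l2 at -0.24 and Zfp36l1 the 1 gene that rose, at 0.31. Furin, a protease that processes many secreted proteins, fell by 0.47 on the log2 scale, and Tmprss6, a liver protease that restrains hepcidin, had -1.02 at 2.56 CPM in the libraries labelled knockout and 5.23 CPM in wild type. Zfp36l1, Zfp36l2 and Tmprss6 were named after their values were seen.

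Mitochondrial iron import and heme synthesis had 1 gene higher, 4 lower and 10 not called out of 15, with a median of -0.099. The share called in either direction was near that over all tested genes, 30.4%. Alad, the second enzyme of heme synthesis, fell to 17.7 ± 2.22 CPM in the libraries labelled knockout, against 30.4 ± 0.85 CPM in wild type (SD, n = 4 each), or -0.78 as log2 fold change (edgeR adjusted p = 2.77e-06). Both mitoferrins, which carry iron into mitochondria, were called lower, Slc25a37 at -0.40 and Slc25a28 at -0.32. Named after their values were seen, Alas1, the first enzyme of the pathway, completed the 4 at -0.24, and the mitochondrial glycine carrier Slc25a38 was the 1 that rose, at 0.30. No gene of this list was called higher with library totals alone, with knockouts 2 and 3 alone, or when knockout 1, knockout 4 or wild type 1 was left out, while 2 were with no low-count filter and with the replicate block, and 3 with knockouts 1 and 4 alone.

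Heme transport and breakdown had 1 gene higher, 2 lower and 9 not called out of 12, with a median of 0.00099. Among all tested genes the share called was 30.4%. Hmox1, the oxygenase that frees iron from heme, had 19.3 ± 1.17 CPM in the libraries labelled knockout and 7.06 ± 1.54 CPM in wild type (SD, n = 4 each), or 1.48 as log2 fold change. Blvrb, a biliverdin reductase, had -0.60, and Lrp1, a receptor that takes up the heme-hemopexin complex among many ligands, had -0.81. Iron-sulphur cluster assembly had 2 genes higher, none lower and 24 not called out of 26, with a median of 0.053. Those called were the assembly factors Bola3 (0.58) and Nubp1 (0.33). Without knockout 2, and with knockouts 1 and 4 alone, 5 were called higher. None was called lower by DESeq2 or limma-voom, 1 had a negative value with an unadjusted p under 0.05 in edgeR, and edgeR called 1 lower with library totals alone and with knockouts 2 and 3 alone.

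The other uptake and reduction genes had 1 higher, 1 lower and 6 not called out of 8, with a median of -0.14. Among all tested genes the share called was 30.4%. The higher count was 2 without wild type 1, and the lower count was 2 without wild type 4 and with knockouts 1 and 4 alone. Snx3, a sorting nexin that returns Tfrc to the cell surface, rose to 129 ± 2.90 CPM in the libraries labelled knockout, against 107.4 ± 7.88 CPM in wild type (SD, n = 4 each), or 0.26 as log2 fold change. Myof, a ferlin of membrane traffic, had -1.5 on the log2 scale and averaged 2.26 CPM in the labelled knockouts and 6.39 CPM in wild type. The other export, storage and chaperone genes had 2 higher, none lower and 5 not called out of 7, with a median of 0.16. None of them was lower by DESeq2 or limma-voom, and 1 had a negative value with an unadjusted p under 0.05. In edgeR 1 was called lower with library totals alone, without wild type 1 and without wild type 3. The higher count was 4 with knockouts 1 and 4 alone, and 1 with library totals alone, with knockouts 2 and 3 alone, and in each fit without knockout 1, knockout 4, wild type 2, wild type 3 or wild type 4. Pcbp1, the chaperone that loads iron into ferritin, had 0.17, a call that 9 of 17 alternative settings ended, each fit without 1 library among them except that without knockout 2. Tex264, the other gene called higher, had 0.65; it is a receptor for autophagy of the endoplasmic reticulum and not an iron protein, so Pcbp1 is the 1 iron gene among those called.

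Other transcripts with a known or proposed IRE had none higher, 2 lower and 6 not called out of 8, with a median of 0.011. Among all tested genes the share called was 30.4%. Cdc14a, a phosphatase for which a 3′ IRE was described in human, had -0.44, and the actin-binding profilin gene Pfn2 had -0.37. The Cdc14a call ended with knockouts 2 and 3 alone, and the Pfn2 call in 8 of 17 settings. None of the 8 was called higher by edgeR, DESeq2 or limma-voom, and none reached an unadjusted p under 0.05 as higher.

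**Figure D5:**
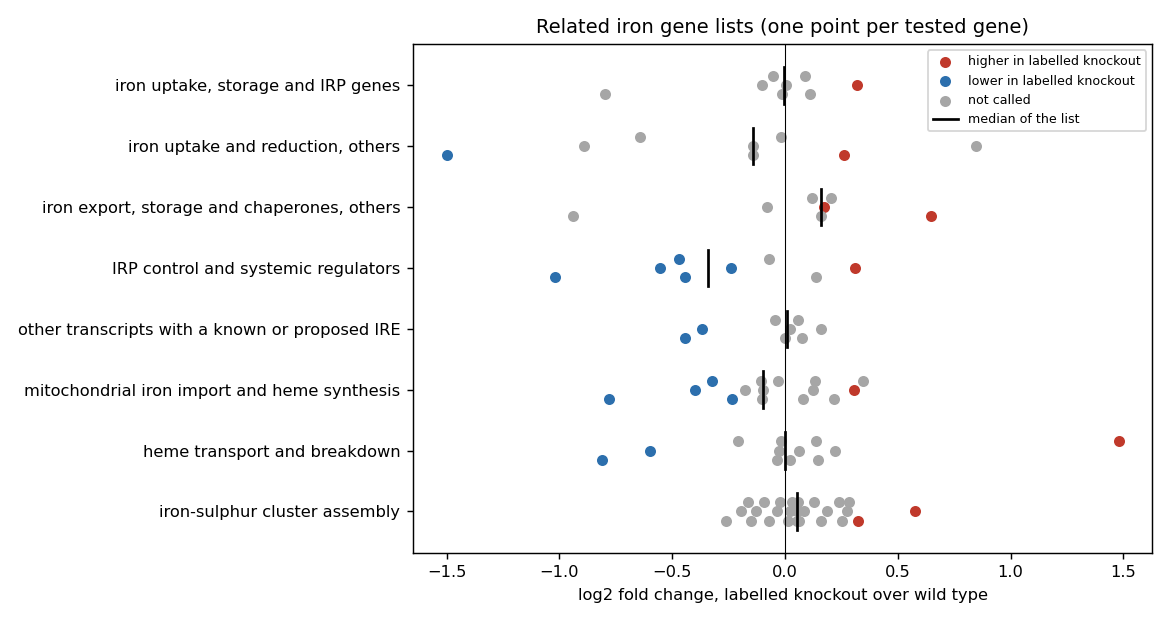
Log2 fold change, labelled knockout over wild type, of every tested gene in the iron gene lists (1 point per gene; red called higher, blue called lower, grey not called; black line, median of the list). The list of regulators of the IRPs and of systemic iron has the lowest median, -0.34. The 8 iron genes described first have a median of -0.0025, with Steap3 lowest at -0.80.

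Markers of other spleen cells moved between the labels too. Over all tested genes 14.6% were lower and 15.7% higher. Of 15 B cell markers, 12 were lower and none higher. Their summed levels were 423.9 to 597 CPM in the libraries labelled knockout and 534 to 814.7 CPM in wild type. Most of that sum was Ighm, with 342.5 CPM in the labelled knockouts and 345.9 CPM in wild type, which was not called (-0.014). Of 15 macrophage and monocyte markers 2 were tested: Cd68 was lower (-0.90) and Axl, which T cells can also express, higher (0.44). Summed levels were 59.97 to 78.6 CPM in the libraries labelled knockout and 59.5 to 60.9 CPM in wild type. Of 10 dendritic cell markers 6 were tested, of which 3 were lower and 1 higher. Their list summed to 112.8 to 128.8 CPM in the labelled knockouts and 136.3 to 151.2 CPM in wild type, with Clec9a and Cd209a at 0. The erythroid list had 11 genes in the table, of which 4 were tested. The globin gene Hba-a1 was called, higher at 1.15 CPM in the libraries labelled knockout and 0.42 CPM in wild type (list sums 6.22 to 8.15 CPM in the labelled knockouts and 3.71 to 5.40 CPM in wild type). Of 8 neutrophil markers 2 were tested, Ly6g and Cxcr2, and both were higher. List sums were 32.3 to 49.9 CPM in the labelled knockouts and 15.1 to 25.2 CPM in wild type. These sums were mostly Ly6g (29.92 CPM in the labelled knockouts and 11.04 CPM in wild type) and Cxcr2 (12.98 and 9.104 CPM). S100a9 stood at 0, and S100a8, Mpo, Elane, Camp and Ngp averaged 0.1783 CPM or less in each label. Whether neutrophils were present was not tested. Of 8 NK and CD8 markers 5 were tested, of which 1 was lower and none higher (list sums 23.6 to 31.5 CPM in the labelled knockouts and 32.1 to 35.7 CPM in wild type). The part of these cells in the iron gene values was not tested.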

How the data were processed

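The authors deposited raw counts per gene for 8 libraries of polyadenylated RNA, as whole numbers with no normalization, with gene length and position in further columns. The submitters' processing notes name fastp, a read trimmer; the sources used here do not give the aligner, counter, build or strand setting. All 9 gene identifiers were found in GENCODE M21, 8 with identical start and end, and positions are therefore called GRCm38.

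The deposited counts were tested with edgeR 4.0.16 under R 4.3.3: filterByExpr (minimum count 10, minimum total 15), TMM scaling and a robust quasi-likelihood F-test on genotype alone, two-sided. SEs are log2 fold changes divided by the root of F. Ratios were compared by exact permutation. Replicates differed by more than sampling noise (chi-square per gene 3.69 to 12.3), so each library counted once. The steps were tested on simulated data. The members, gene lists and tests were chosen with earlier results of these data known. Named genes are all members, up to 3 called genes with the smallest p per related list, and the 3 nearest profiles of a called member. Alternatives were other scalings and filters, DESeq2 1.42.0, limma-voom 3.58.1, a replicate block, each library left out, and pairs of knockout libraries.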

Additional observations from a re-analysis of the deposited data

How the results depend on the processing

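Ftl1 was called higher, with no other of the 9 genes, in all 17 alternatives, at log2 fold changes from 0.27 to 0.39 (adjusted p from 8.95e-06 to 0.00491). The count of these genes called lower was 0, but 1 with knockouts 1 and 4 alone (Ireb2), and 0 to 1 over fits without 1 library (Steap3, without knockout 4). Those fits kept the labelled knockouts lowest in Ireb2 or dropped the one highest in Steap3, so neither call is a separate result. Counts over all genes stayed within 1.5 times. Near-zero values changed sign: Tfrc with library totals (-0.044), knockouts 1 and 4 alone (-0.087) and over fits without 1 library (-0.053 to 0.065); Slc11a2 with no filter (0.028), knockouts 2 and 3 alone (0.038) and without 1 library (-0.077 to 0.023); Fth1 with knockouts 1 and 4 alone (0.0028); and Ireb2 with knockouts 2 and 3 alone (0.0082). Their cause was not tested. The log2 difference in Tfrc to Fth1 ran from -0.0065 to 0.13 without 1 library and was -0.082 with knockouts 1 and 4 alone. That in Fth1 to Ftl1 was -0.39 with knockouts 1 and 4 alone and -0.36 with 2 and 3 alone (exact permutation p = 0.0667 in each, the smallest those sizes allow). That in Ireb2 to Aco1 ran from -0.32 to -0.12 without 1 library. Requiring Watson-Crick pairs alone left a hairpin match in 0.37% of genes. Whether replicate numbers pair the samples could not be told from correlations between libraries. Same-numbered libraries had correlations of 0.256, 0.161, 0.0551 and 0.02 in their deviations over 5000 genes. Libraries with different numbers ran from -0.281 to 0.176, and not every library correlated best with its own number. With the replicate block 4936 genes were called, no call of the 9 genes changed, and the Fth1 to Ftl1 difference of -0.38 had an exact sign-flip p of 0.125, the smallest 4 pairs allow. Counts of 18 or fewer per library limit Steap3, and Slc40a1 could not be compared at this depth.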
